A study of Mus musculus with 8 samples.

Results

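The 10 genes described here, Rhox5, Magea4, Dazl, Ddx4, Mael, Stk31, Tdrkh, Sycp3, Hormad1 and Tex101, belong to a class of germ cell genes known for being silenced by methylation of their promoters in somatic cells. They were found by name among the 18094 genes of the expression table, and all 10 were present. Magea4 and Rhox5 were chosen by measured values, for their rise in CTCF-K20R mESCs, so their day 0 difference, and each comparison that uses it, is given below as a description with no test. The other 8 were chosen as germline genes known to be silenced in this way. Earlier results of these data were known by then, so the genes called chosen without values below were not chosen blind to the data. Tex101 did not pass the filter on low values, set at an average of 10 normalized counts per library, and Magea4 passed it only through its CTCF-K20R mESC libraries.

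RNA-seq covered 4 groups of 2 libraries each, namely undifferentiated mESCs (day 0) and embryoid bodies (EBs, day 4) of either genotype, WT or CTCF-K20R. All groups derive from E14Tg2A, a male mouse embryonic stem cell line kept on mitomycin C-treated feeder fibroblasts in serum with LIF and 2i. EBs are aggregates formed in hanging drops after LIF was withdrawn. CTCF-K20R cells were made with CRISPR/Cas9 and carry arginine in place of lysine 20 of CTCF, a zinc finger protein that binds DNA and organizes chromatin loops. How many edited clones were sequenced is not given in the sources used here, so the mutation cannot be told apart from the history of the clone or of its culture.

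Germline genes of this class have CpG-rich promoters, and they are unusual in that DNA methylation at such promoters is their main lock in somatic cells. The lock is set around implantation, when the de novo methyltransferases DNMT3A and DNMT3B, with the cofactor DNMT3L, methylate the genome. mESCs grown with 2i have little DNA methylation, and several of these genes are transcribed in them at low levels. Before methylation is gained, the promoters are also held down by E2F6 and a Polycomb complex (PRC1.6) whose MGA and MAX subunits bind an E-box, and by H3K9 methyltransferases. DNA methylation was not measured in these libraries, so nothing below is a measurement of it.

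Promoter sequence is shown first because CpG-rich promoters are typical of this class, although CpG content was not used to choose the genes. A RefSeq window (GRCm38.p6) of 300 bases, from 250 before to 50 after the start of transcription, was matched for all 10 genes. The following stretches are the 120 bases before the farthest annotated start, 5′ to 3′ on the strand of the gene, with each CpG in capitals. Dazl, Mael and Hormad1 are shown as genes that were higher in CTCF-K20R EBs, and Tdrkh as a gene that was not called.
Dazl, chr17:50293637-50293756, minus strand: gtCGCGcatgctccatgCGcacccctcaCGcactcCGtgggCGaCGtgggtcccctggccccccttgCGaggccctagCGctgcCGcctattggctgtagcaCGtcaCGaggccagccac
Mael, chr1:166238748-166238867, minus strand: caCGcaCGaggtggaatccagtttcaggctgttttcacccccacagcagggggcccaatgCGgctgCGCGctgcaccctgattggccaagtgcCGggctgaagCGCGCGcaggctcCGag
Hormad1, chr3:95559557-95559676, plus strand: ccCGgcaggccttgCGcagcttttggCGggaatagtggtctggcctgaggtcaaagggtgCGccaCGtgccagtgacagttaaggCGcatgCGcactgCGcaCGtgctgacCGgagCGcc
Tdrkh, chr3:94413123-94413242, plus strand: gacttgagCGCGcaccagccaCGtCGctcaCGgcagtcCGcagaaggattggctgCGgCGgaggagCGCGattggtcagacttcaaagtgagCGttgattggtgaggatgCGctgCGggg

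The stretches held 12 CpGs for Dazl, 10 for Mael, 11 for Hormad1 and 13 for Tdrkh. Over the whole 300-base window, the 8 autosomal genes had between 15 CpGs (Sycp3) and 38 (Ddx4), against a median of 7 over all 32851 windows. Windows with at least 15 CpGs made up 34.6% of all windows, a threshold set at the lowest of these 8 genes. Both X-linked genes had few, with 5 CpGs for Rhox5 and 2 for Magea4. These 2 windows may not be the starts used here: the RefSeq start of Rhox5 lay 50.23 kb from its GENCODE start and its downstream bases were in no GENCODE transcript, and that of Magea4 lay 1002 bases inside its RefSeq gene record. The windows of Ddx4 and Tex101 also lay inside a longer annotated gene, by 323 and 4625 bases, so no stretch is printed for these 4 genes.

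**Figure D1:**
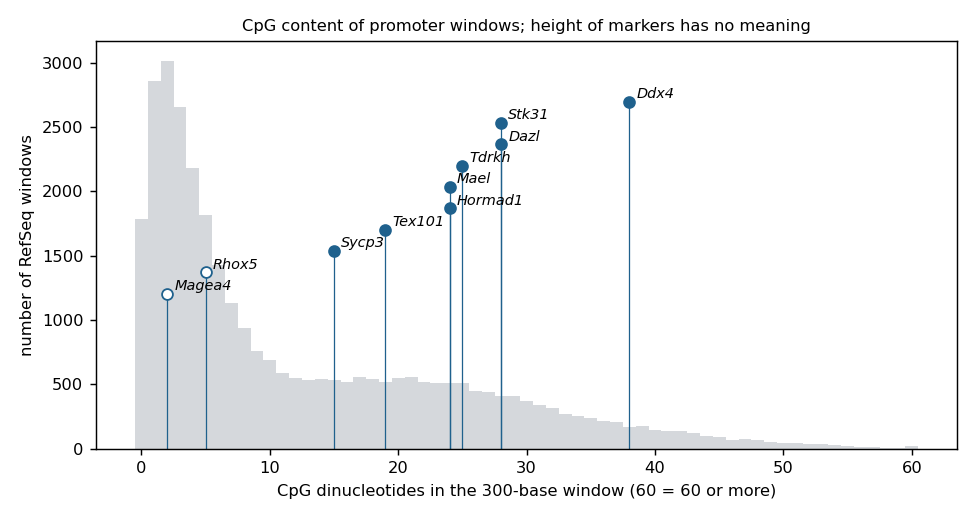
Number of RefSeq promoter windows (vertical axis, grey bars) by the number of CpGs in the 300-base window (horizontal axis), with the 10 germline genes marked by lines whose height has no meaning. The 8 autosomal genes (filled markers) lie at 15 to 38 CpGs, and Magea4 and Rhox5 (open markers, start uncertain) lie at 2 and 5.

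The E-box CACGTG, the letters bound by MGA and MAX among other factors, was present in the windows of Ddx4, Mael, Stk31, Sycp3 and Hormad1. It was searched on both strands, which read alike because the motif is a palindrome. It was in 7.15% of all windows and in 11.3% of those with at least 15 CpGs. One match is shown for each gene where the 40 bases around it lie before every annotated start, with the motif in capitals.
Mael, chr1:166238945-166238984, minus strand: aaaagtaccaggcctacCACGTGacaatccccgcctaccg
Stk31, chr6:49395466-49395505, plus strand: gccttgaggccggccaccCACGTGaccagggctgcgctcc
Sycp3, chr10:88459506-88459545, plus strand: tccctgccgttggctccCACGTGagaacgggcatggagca
Hormad1, chr3:95559603-95559642, plus strand: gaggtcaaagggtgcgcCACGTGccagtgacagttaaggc

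GCGGGA, letters within the E2F motif, was found on either strand in the windows of Ddx4, Mael, Sycp3 and Hormad1, against 20.0% of all windows and 45.4% of the CpG-dense ones. The core of the CTCF motif, searched on both strands, was in the Dazl window alone among the 10, and in 2.43% of all windows. A match is a run of letters and not a bound site. Neither CpG content nor the E-box separated the genes that were higher in CTCF-K20R EBs from the others: Tdrkh and Ddx4 held more CpGs than Mael, and the E-box was present in Ddx4 and Sycp3 and not in Dazl.

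Values below are normalized counts, that is, reads per gene scaled by the authors to be comparable between libraries. Totals per library ran from 19412659 to 21311513, and 3 reads, taken as the limit of detection, were worth 2.43 to 3.44 of them. The 2 WT libraries of each day differed by less than the sampling noise of reads (mean squared difference 0.314 times that noise on day 0 and 0.278 times on day 4, against 3.998 and 4.3625 for CTCF-K20R). They were therefore counted as 1 sample, and every p-value rests on the spread of the CTCF-K20R pairs. A gene was called where limma gave a Benjamini-Hochberg adjusted p under 0.05 over the 15767 genes tested and an absolute log2 fold change above 1, on the log2(value + 1) scale, which understates the change of low genes. Ctcf itself had 3938 to 3971 normalized counts in WT and 4408 to 4610 in CTCF-K20R mESCs, which does not check the labels because a point mutation need not change the level.

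On day 4, 4 of the 7 tested genes chosen without values were called higher in CTCF-K20R than in WT EBs (Dazl, Mael, Stk31 and Hormad1) and 0 were lower, where 6.89% of all genes tested were called higher and 8.65% lower. On day 0, 0 of these 7 genes were called in either direction, where 1.19% of all genes were called higher and 2.6% lower. Sycp3 was lower on day 0 with a limma adjusted p of 0.0412 and missed the call on the fold alone. Dazl (limma adjusted p = 0.0785) and Stk31 (adjusted p = 0.124) did not reach the adjusted threshold. The median log2 fold change over all genes tested was -0.01 on day 0 and 0.01 on day 4.

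**Figure D2:**
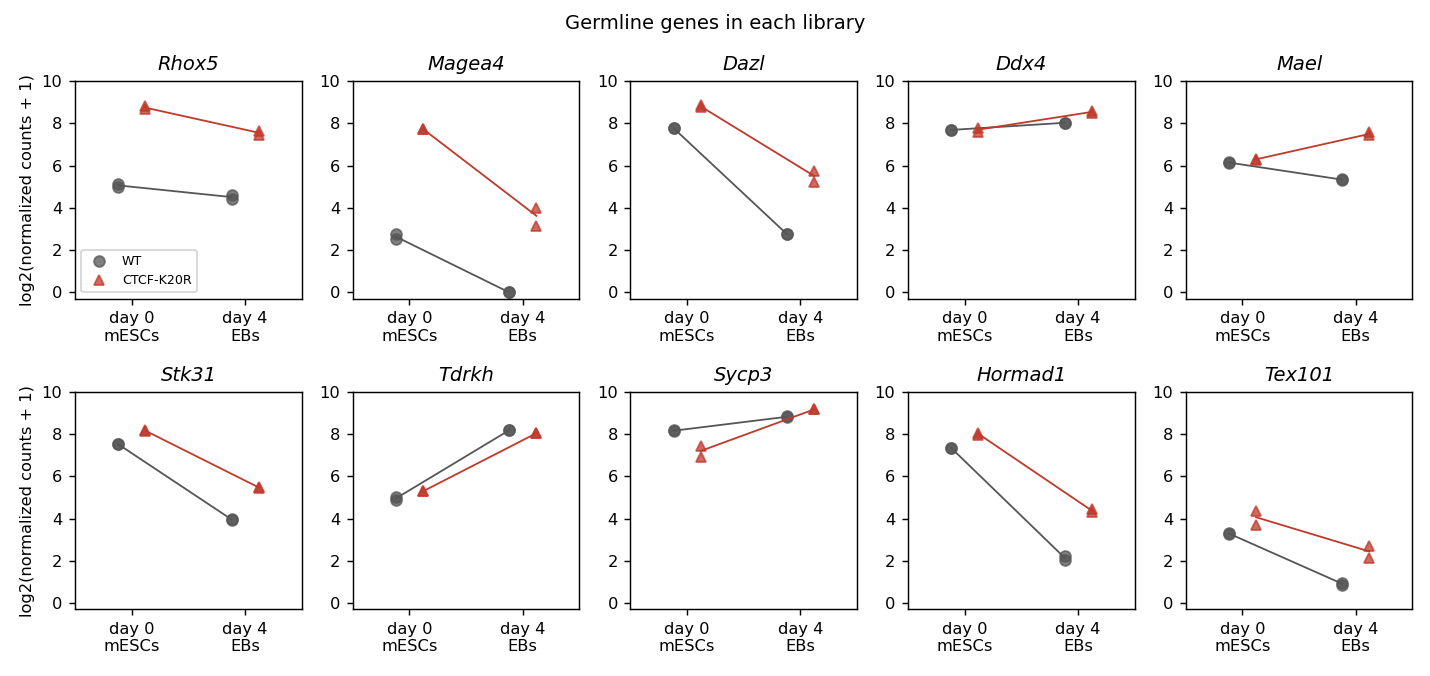
log2(normalized counts + 1) of each germline gene (vertical axis) in every library on day 0 and day 4 (horizontal axis), with circles for WT, triangles for CTCF-K20R and lines through the group means. Dazl, Stk31, Hormad1 and Tex101 sit lower in EBs than in mESCs of both genotypes, with the CTCF-K20R EBs above the WT EBs. Mael has its lowest libraries in WT EBs and its highest in CTCF-K20R EBs, and Ddx4, Sycp3 and Tdrkh were higher in EBs than in mESCs.

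The label of silenced genes held for some of them only. WT mESCs expressed most of these genes: per kb of the longest annotated transcript, Sycp3 was the highest with 243 normalized counts per kb, followed by Hormad1 (107), Dazl (73.1), Ddx4 (68.0), Stk31 (56.3), Rhox5 (43.0) and Mael (41.2), while Tex101 (7.21), Magea4 (5.5) and Tdrkh (5.26) were low. In WT EBs, Sycp3 (385 per kb), Ddx4 (86.1) and Tdrkh (50.7) were the highest of the 10, so these 3 genes were not silent on day 4. Magea4 was at 0 in both WT EB libraries, and Tex101, Dazl, Hormad1 and Stk31 were at or below 4.49 per kb. More than 2-fold lower levels on day 4 than on day 0 in WT cells were found in 3 of the 7 tested genes chosen without values (Dazl, Stk31 and Hormad1), beside 16.3% of all genes. Against the limit of detection, Tex101 was at least 3.06-fold lower and Magea4 at least 1.81-fold lower in WT EBs than in WT mESCs. With 1 WT sample per day this comparison has no replicate check. In bulk RNA, fewer expressing cells and less RNA per cell cannot be told apart.

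Positions below are those of GENCODE vM21 on GRCm38. Among the regulators of germ cell RNA, Dazl (chr17:50279395-50293636), an RNA-binding protein that promotes translation in germ cells and without which germ cells are lost, showed the widest change across days. It had 219 and 217 normalized counts in WT mESCs, 459 and 430 in CTCF-K20R mESCs, 5.73 and 5.81 in WT EBs, and 53.1 and 36.2 in CTCF-K20R EBs. Both CTCF-K20R libraries lay above both WT libraries on each day. The ratio of CTCF-K20R to WT was 2.04 on day 0 and 7.74 on day 4. By limma, the log2 fold change was 1.03 on day 0 (SE 0.30, adjusted p = 0.0785) and 2.73 on day 4 (SE 0.30, adjusted p = 0.00161). Dazl also fell on differentiation in CTCF-K20R cells, with a log2 change of -3.31 from day 0 to day 4 (SE 0.25, adjusted p = 0.000176), beside -5.01 in WT cells.

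Ddx4 (Vasa, chr13:112598333-112652475), an RNA helicase of germ granules, had 208 and 202 normalized counts in WT mESCs and 194 and 220 in CTCF-K20R mESCs, and these groups overlapped. In EBs it had 257 and 262 in WT and 387 and 355 in CTCF-K20R. The CTCF-K20R EBs were the highest group, 1.43 times WT. The log2 fold change on day 4 was 0.51 (SE 0.16, limma adjusted p = 0.0474), under the fold required for a call.

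The genes of the piRNA pathway, which guards germ cells against transposons with small RNAs, differed from one another. Mael (chr1:166201201-166238747), a nuage protein needed for transposon silencing in the testis, had 68.6 and 70.7 normalized counts in WT mESCs, 75.4 and 79.6 in CTCF-K20R mESCs, 39.6 and 39.1 in WT EBs, and 171 and 188 in CTCF-K20R EBs. It was near its WT level in CTCF-K20R mESCs and 4.57 times WT in CTCF-K20R EBs. The log2 fold change was 0.15 on day 0 (SE 0.23, limma adjusted p = 0.698) and 2.16 on day 4 (SE 0.23, adjusted p = 0.00143). Mael was the member whose days went opposite ways in the genotypes, with a log2 change from day 0 to day 4 of 1.2 in CTCF-K20R (SE 0.19, limma adjusted p = 0.003) and -0.81 in WT.

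Stk31 (chr6:49395604-49469501), a Tudor domain protein with a kinase-like domain found in germ cells, had 181 and 183 normalized counts in WT mESCs, 281 and 288 in CTCF-K20R mESCs, 14.9 and 14.2 in WT EBs, and 43.6 and 43.1 in CTCF-K20R EBs. The groups did not overlap on either day, with ratios of 1.56 on day 0 and 2.98 on day 4. The log2 fold change was 0.64 on day 0 (SE 0.23, limma adjusted p = 0.124) and 1.51 on day 4 (SE 0.23, adjusted p = 0.0046). Tdrkh (chr3:94413273-94434668), a Tudor domain partner of PIWI proteins on mitochondria, went the other way across days. It had 31.3 and 28.6 normalized counts in WT mESCs and 38.4 and 37.9 in CTCF-K20R mESCs, against 287 and 291 in WT EBs and 261 and 262 in CTCF-K20R EBs. EBs were far above mESCs in both genotypes, and CTCF-K20R EBs were slightly below WT EBs, with a log2 fold change of -0.14 (SE 0.21, limma adjusted p = 0.638). Tdrkh overlaps Oaz3 on the opposite strand, and Stk31 overlaps a pseudogene on the opposite strand. Whether the counting used strand is not given in the sources used here, so reads of such pairs may not be separated.

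The meiotic chromosome axis was represented by Sycp3 (chr10:88459569-88473236), a structural protein of the synaptonemal complex, and Hormad1 (chr3:95559677-95587671), a HORMA domain protein of unsynapsed axes. Sycp3 had 288 and 280 normalized counts in WT mESCs, 120 and 171 in CTCF-K20R mESCs, 444 and 455 in WT EBs, and 571 and 574 in CTCF-K20R EBs. It was the one member lower in CTCF-K20R mESCs, with both libraries below both WT libraries and a log2 fold change of -0.98 (SE 0.22, limma adjusted p = 0.0412), just short of the fold required. Without the second CTCF-K20R mESC library the value was -1.23 (adjusted p = 0.0318) and Sycp3 was called lower, and without the first it was -0.73 (adjusted p = 0.0668). Over all alternatives its limma adjusted p ran from 0.00187 to 0.177. On day 4 its log2 fold change was 0.35 (SE 0.22, adjusted p = 0.266). Sycp3 overlaps Chpt1 on the opposite strand, and Chpt1 went from 466 in each WT EB library to 271 and 306 in CTCF-K20R EBs.

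Hormad1 had 161 normalized counts in each WT mESC library, 264 and 249 in CTCF-K20R mESCs, 3.73 and 3.14 in WT EBs, and 20.6 and 19.0 in CTCF-K20R EBs. The WT EB libraries were close to the limit of detection, and both CTCF-K20R EB libraries were clear of it. The ratio was 1.59 on day 0 and 5.76 on day 4, and the log2 fold change was 0.67 (SE 0.29, limma adjusted p = 0.181) and 2.23 (SE 0.29, adjusted p = 0.00271). From day 0 to day 4 Hormad1 had a log2 change of -3.63 in CTCF-K20R cells (SE 0.23, limma adjusted p = 0.000105) and of -5.19 in WT cells.

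Tex101 (chr7:24668007-24676675), a GPI-anchored surface protein of male germ cells, had the lowest mean over the 8 libraries of the 10 genes. It had 9.07 and 8.53 normalized counts in WT mESCs, 19.3 and 12.1 in CTCF-K20R mESCs, 0.959 and 0.811 in WT EBs, and 3.43 and 5.44 in CTCF-K20R EBs. WT EBs were under the limit of detection, so CTCF-K20R EBs were at least 1.54-fold higher. In the limma fit without a filter on low values, the log2 fold change was 0.74 on day 0 (SE 0.48, adjusted p = 0.398) and 1.5 on day 4 (SE 0.48, adjusted p = 0.0895). Neither was called.

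Rhox5 (chrX:37804842-37808876), a homeobox gene of reproductive tissues, had 30.7 and 34.2 normalized counts in WT mESCs, 410 and 444 in CTCF-K20R mESCs, 20.1 and 23.4 in WT EBs, and 200 and 174 in CTCF-K20R EBs. CTCF-K20R was above WT on both days, 13.2 times on day 0 and 8.59 times on day 4. The day 0 log2 difference of 3.68 is the value by which the gene was chosen. The day 4 libraries were not used to choose it, and gave a log2 fold change of 3.04 (SE 0.21, limma adjusted p = 0.000325). They come from the same edited cells, so they repeat the measurement and not the edit.

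Magea4 (chrX:72222017-72222964), a cancer-testis antigen whose family binds ubiquitin ligases, had 5.69 and 4.75 normalized counts in WT mESCs and 212 and 210 in CTCF-K20R mESCs, the 40.4-fold difference by which it was chosen. In EBs it was at 0 in both WT libraries and at 14.9 and 7.69 in CTCF-K20R. CTCF-K20R EBs were thus at least 3.93-fold higher than WT EBs, against the WT limit of detection of 2.88, taken as the higher of the 2 libraries. The fitted log2 fold change of 3.56 depends on the pseudocount and is no bound: it was 6.76 with a pseudocount of 0.1 and 1.67 with 5. No test is given, because the gene passed the filter only through the libraries by which it was chosen.

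**Figure D3:**
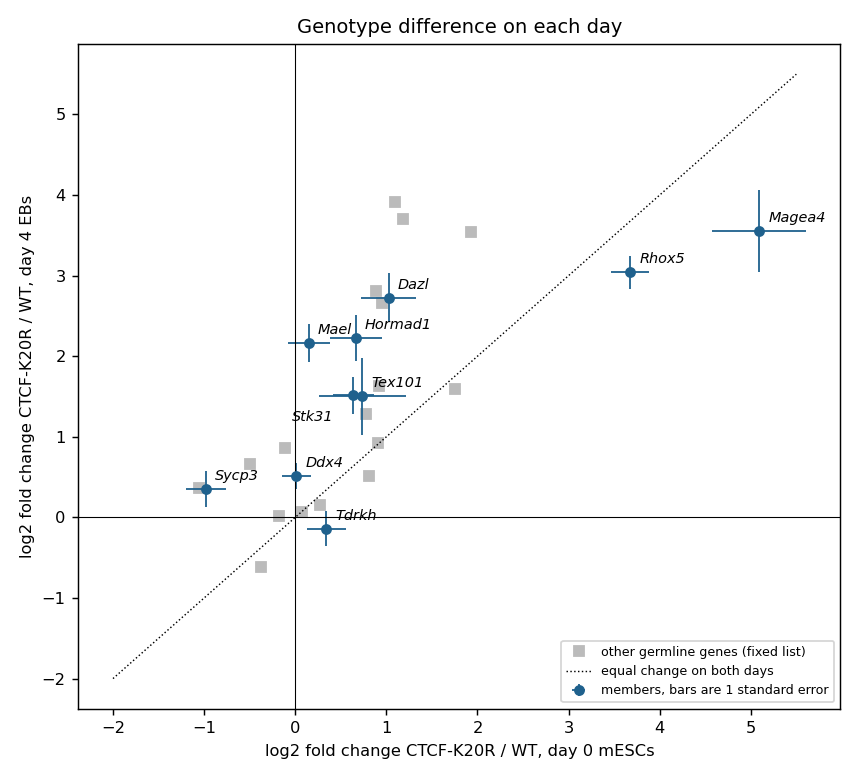
log2 fold change of CTCF-K20R against WT in day 0 mESCs (horizontal axis) and day 4 EBs (vertical axis) for the 10 germline genes (blue, bars are 1 standard error) and for 17 other germline genes (grey), with a dotted line where both days are equal. Dazl, Mael, Hormad1 and Sycp3 lie above the line with an interaction adjusted p under 0.05, and Rhox5 and Magea4, chosen on day 0, lie below it.

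Counted by libraries alone, both CTCF-K20R libraries lay above both WT libraries for 5 of the 7 tested genes chosen without values on day 0 and for 6 of them on day 4. Over all genes tested the same was true of 37.6% on day 0 and 43.3% on day 4, so such a count is common among genes at large. From mESCs to EBs in CTCF-K20R cells, 3 of the 7 tested genes chosen without values were called lower (Dazl, Stk31 and Hormad1) and 3 were called higher (Mael, Tdrkh and Sycp3), where 11.6% of all genes were called lower and 14.5% higher. Ddx4 had a log2 change of 0.84 (SE 0.13, limma adjusted p = 0.00266), under the fold required for a call.

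Whether the genotype difference itself changed between the days was tested with the interaction term. It was positive with an adjusted p under 0.05 for Mael (2.01, SE 0.33, limma adjusted p = 0.00987), Sycp3 (1.33, SE 0.31, adjusted p = 0.0319), Dazl (1.70, SE 0.43, adjusted p = 0.0373) and Hormad1 (1.56, SE 0.40, adjusted p = 0.0407), which is 4 of the 7 tested genes chosen without values, beside 14.7% of all genes. All 4 lost the call when 1 CTCF-K20R EB library was left out, for either library, with adjusted p values of 0.0675 to 0.165, and Dazl and Hormad1 also when either CTCF-K20R mESC library was left out, with 0.101 to 0.114. With a pseudocount of 5, Dazl (1.17, adjusted p = 0.0733) and Hormad1 (0.90, adjusted p = 0.11) lost it, and with no filter on low values Dazl, Sycp3 and Hormad1 did (0.0592 to 0.0774). For Sycp3 the positive term came from a level below WT on day 0 and not from a called difference on day 4. Stk31 did not pass (0.87, SE 0.32, limma adjusted p = 0.101), nor did Ddx4 (0.50, adjusted p = 0.153) or Tdrkh (-0.48, adjusted p = 0.298).

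A list of 23 other germline genes of the same class was measured in the same way, and 17 of its genes were tested. This list, too, was set with earlier results of these data known. On day 4, 8 were called higher and 0 lower, with limma adjusted p values of at most 0.00394. Over all genes tested, 6.89% were called higher and 8.65% lower on that day. WT EBs were under the limit of detection for Tex11, an X-linked meiotic crossover gene, and Slc25a31, an ADP/ATP carrier of sperm, so CTCF-K20R EBs were at least 12.1-fold and at least 9.97-fold higher. Slc25a31 passed the filter on low values only through CTCF-K20R libraries, so its call is no test. The others were Gpat2 (3.54) and Mov10l1 (2.81) of the piRNA pathway, the meiotic cohesin subunit Smc1b (2.67), the PIWI protein Piwil2 (1.63), the testis tubulin Tuba3a (1.59) and the meiotic cohesin subunit Stag3 (1.28), with log2 fold changes in parentheses. On day 0, 2 were called higher (Gpat2, 1.93, and Tuba3a, 1.75) and 0 lower, where 1.19% of all genes were called higher and 2.6% lower. The median log2 fold change of the list was 0.81 on day 0 and 0.93 on day 4. In EBs, Gpat2 for instance was at 74.0 and 77.2 normalized counts in the WT libraries and at 862 and 925 in the CTCF-K20R libraries, while Sycp1 had 164 and 169 in WT and 170 and 203 in CTCF-K20R EBs. Higher expression in CTCF-K20R EBs was therefore shared by some germline genes outside the 10 and not by all.

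**Figure D4:**
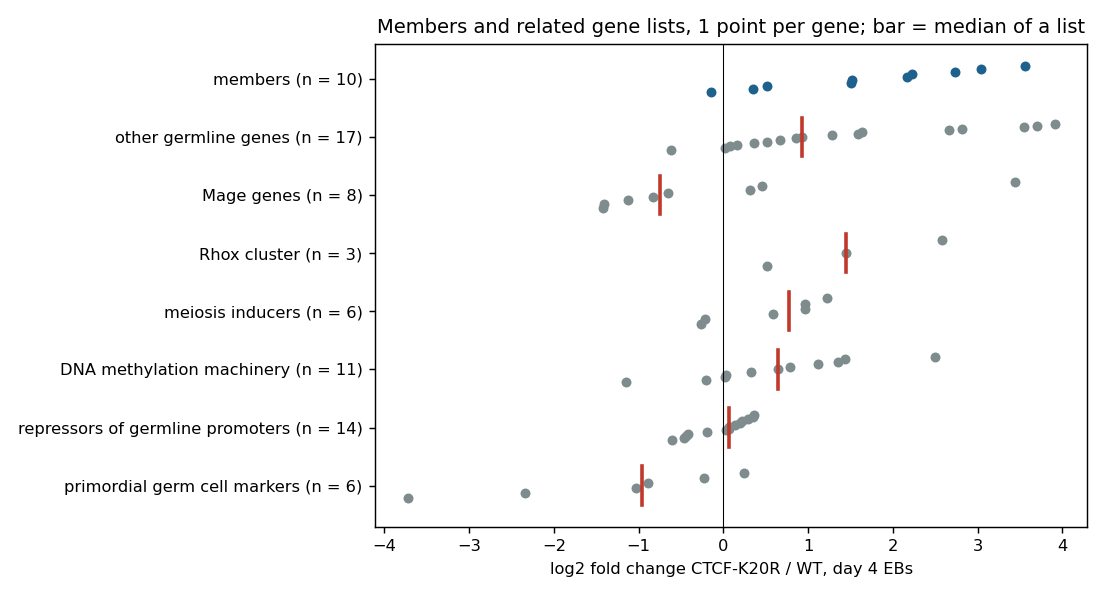
log2 fold change of CTCF-K20R against WT in day 4 EBs (horizontal axis) for the 10 germline genes (blue) and for 7 related gene lists (grey, 1 point per gene, red bar at the median of the list). Other germline genes have a median of 0.93, repressors of germline promoters of 0.06 and primordial germ cell markers of -0.96.

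The enzymes that set and remove DNA methylation were read because they act on these promoters. The maintenance factors Dnmt1 and Uhrf1 were near WT in EBs, with log2 fold changes of 0.01 and 0.03. Of 11 genes tested, 4 were called higher on day 4: Dnmt3l (2.50), Tet1 (1.43), which oxidizes methylcytosine, Dnmt3b (1.36) and the chromatin remodeler Hells (1.12). Zfp57, which protects methylation at imprinted regions, was called lower (-1.15). Of all genes tested, 6.89% were called higher and 8.65% lower on day 4, and 1.19% and 2.6% on day 0. On day 0 the one call was Tet3 (1.31). Dnmt3a then had a log2 fold change of -0.95 (limma adjusted p = 0.00488), under the fold required, with 3170 and 3171 normalized counts in WT and 1690 and 1596 in CTCF-K20R mESCs. Dnmt3l was higher on day 0 (0.79, limma adjusted p = 0.00161), under the same fold, and Dnmt3b was near WT (-0.06). On day 4 Dnmt3a was on the other side, with 2685 and 2625 in WT and 4246 and 4960 in CTCF-K20R EBs (log2 fold change 0.79, limma adjusted p = 0.00249), also under that fold. Of the 14 repressors that act at germline promoters, among them E2f6, Mga, Max, L3mbtl2, Pcgf6, Setdb1 and Ehmt2, 0 were called on either day. At the shares above, few of 14 genes would be called. The median log2 fold change of these repressors was -0.03 on day 0 and 0.06 on day 4. Several differed under the fold required. By limma, Mga was lower on day 0 (-0.58, adjusted p = 0.00161), and Ehmt2 on both days (-0.33, adjusted p = 0.0107, and -0.44, adjusted p = 0.00122). E2f6 was higher on day 0 (0.40, adjusted p = 0.0367) and lower on day 4 (-0.47, adjusted p = 0.00948). L3mbtl2 (0.36, adjusted p = 0.00426) and Trim28 (0.35, adjusted p = 0.000496) were higher on day 4. Among 6 tested genes that induce or carry out meiosis, the recombinase Dmc1, which is not an inducer, was called higher on day 4 (1.22). Of these 6, 0 were called on day 0.

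Markers of cell state moved in the same libraries. Of 8 pluripotency markers, 5 were called higher and 1 lower in CTCF-K20R EBs, and they summed to 15612 to 15721 normalized counts in WT EBs and 31793 to 32581 in CTCF-K20R EBs. Of 8 day 4 differentiation markers, 5 were called lower, and all 8 summed to 53559 to 53609 in WT and 9762 to 9851 in CTCF-K20R EBs. Mesp1 and Cer1 passed the filter on low values only through WT EBs, so their calls are no test. Beside these counts, 6.89% of all genes tested were called higher and 8.65% lower on day 4. In mESCs the sum of the pluripotency markers was 109552 to 109748 in WT and 111759 to 112725 in CTCF-K20R. Dazl, Stk31, Hormad1 and Tex101 also had more normalized counts in mESCs than in EBs of both genotypes and more in CTCF-K20R than in WT EBs, and the part of this shift in markers in the difference of these or the other germline genes was not tested.

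Of the primordial germ cell markers, 6 were tested, and on day 4 0 were called higher and 3 lower: Prdm1 (659 and 685 normalized counts in WT, 49.2 and 50.7 in CTCF-K20R), Kit and Tfap2c. Dppa3 and Nanos3 did not pass the filter on low values and were higher in CTCF-K20R EBs. Dppa3 had 2.82 and 2.38 in WT and 16.6 and 20.4 in CTCF-K20R EBs. Nanos3 had 2.87 and 3.23 in WT and 9.18 and 4.31 in CTCF-K20R EBs. On day 0 Ifitm3 was called lower. The 2-cell-like markers, of which 5 were tested, were called higher for 4 on day 0 and for 5 on day 4. Over all genes tested, 1.19% were called higher and 2.6% lower on day 0, and 6.89% and 8.65% on day 4. Except for Usp17la (1.62 on day 4), these markers passed the filter on low values only through CTCF-K20R libraries. Their calls are therefore a description and no test. The 2-cell-like markers summed to 37.4 to 41.5 in WT mESCs, 235 to 280 in CTCF-K20R mESCs, 8 to 10 in WT EBs and 406 to 487 in CTCF-K20R EBs. Some of these genes are near-identical copies, so their reads may be split between them, and their part in the germline gene differences was not tested.

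Feeder fibroblast markers summed to 501 to 511 normalized counts in WT mESCs, 150 to 160 in CTCF-K20R mESCs, 487 to 505 in WT EBs and 680 to 745 in CTCF-K20R EBs. Most of the mESC sums was Thy1 (465 and 459 in WT, 104 and 103 in CTCF-K20R), called lower on day 0. The collagen genes differed, in that Col1a1 was at 16.0 to 34.3 and Col1a2 at 12.2 to 28.1 in the mESC libraries and Col3a1 at 0 to 1.51, the last like Postn, Lum and Dcn. On day 4, Thy1 (1.30) and Col3a1 (3.00) were called higher and Postn lower. Col3a1 had 4.15 and 3.50 in WT and 62.9 and 22.4 in CTCF-K20R EBs, and Postn 52.0 and 51.6 in WT and 0 in CTCF-K20R EBs. Both passed the filter on low values only through the group where they were high, so their calls are no test. The part of the fibroblast markers in the germline gene differences was not tested. Trophoblast markers were called lower for 4 of 7 tested genes in CTCF-K20R EBs and extraembryonic endoderm markers for 4 of 5. In both lists 0 were called higher, where 8.65% of all genes were called lower and 6.89% higher. Hand1, Gata6 and Sox17 passed the filter on low values only through WT EBs, so their calls are no test. Dab2 was not called, with 134 in each WT EB library and 262 and 229 in CTCF-K20R EBs. Below the filter, Sox7 was lower in CTCF-K20R EBs, and Afp and Ttr, near the limit of detection, were higher.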

How the data were processed

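The data were 8 RNA-seq libraries, 2 for each genotype on each day. Each deposited value is a signal, the normalized count of a gene in a library: the authors trimmed reads with Trim_Galore, quantified them with salmon on mm10, summed them per gene with tximport and normalized them with DESeq2. Whole reads could not be recovered, so no count model was used. The annotation release and the use of strand are not given in the sources used here. The step of 1 read was estimated from low values in each library.

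Genes with a mean of at least 10 (15767 of 18094, of which 15664 were found in GENCODE vM21, GRCm38) entered limma 3.58.1 (R 4.3.3) as log2 of the value plus a pseudocount of 1, with 1 mean per group and a moderated variance that followed a mean-variance trend. Averaging the WT pairs left 6 samples, with 2 residual and 3.51 prior degrees of freedom, and p-values measure the spread between samples that may be technical replicates. DEG thresholds followed the paper. The script was tested on simulated data. Alternatives were other pseudocounts, no filter, quantile normalization, all libraries as separate samples, a replicate block and leaving out each library.

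The members and lists were chosen with earlier results of these data known, and the motifs with the members' promoters in view. Genes named are the 10 members, genes of each list called on either day (at most 6 per list), the nearest tested gene on each side of a member, and Ctcf. Sycp1, Piwil2, Stag3, Rhox4d, Dnmt1, Uhrf1, Dnmt3a, the repressors and the fibroblast genes are named beyond this rule, after their values were seen. So are Rhox1, Rhox4b, Rhox6, Rhox9, Dppa3, Nanos3, Dab2, Sox7, Afp and Ttr. Not all neighbours under this rule are reported here. Levels between genes were compared per kb of the longest GENCODE transcript. Promoter windows came from RefSeq (GRCm38.p6). Python 3.11.15 with pandas 2.3.3, numpy 2.4.6 and matplotlib 3.10.9 read the tables and drew the plots.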

Additional observations from a re-analysis of the deposited data

Results flagged for a closer look

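The log2 fold change of CTCF-K20R against WT differed between day 4 and day 0, by the interaction term, for 4 genes. The day 4 value minus the day 0 value was 1.70 for Dazl (limma adjusted p = 0.0373), 2.01 for Mael (adjusted p = 0.00987), 1.33 for Sycp3 (adjusted p = 0.0319) and 1.56 for Hormad1 (adjusted p = 0.0407). The call was lost for all 4 without either CTCF-K20R EB library, for Dazl and Hormad1 with a pseudocount of 5 or without either CTCF-K20R mESC library, and for Dazl, Sycp3 and Hormad1 with no filter on low values. For Sycp3 the day 0 difference was below 0 and the day 4 difference above it, and for the other 3 genes both were above 0.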

How the results depend on the processing

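On day 4, 6 genes were called higher and 0 lower under every alternative run, where 6.89% of all genes were called higher in the main fit. The 6 include Rhox5, chosen by its day 0 rise. They also include Magea4, whose call is no test because it passed the filter only through the libraries by which it was chosen. On day 0, the count called higher was 1 (Dazl) in place of 0 with all 8 libraries as separate samples, without or with the replicate block, and the count called lower went from 0 to 1 (Sycp3) over the fits that leave out 1 library each. Of 571 values of single genes under an alternative, 540 stayed the same, 9 passed the threshold, 18 lost it, 3 reversed and 1 moved. The same means the same direction and side of the threshold. For the untested values of Rhox5 and Magea4 it means the same direction and a shift within a set multiple of the standard error. The reversed values were the Magea4 difference between the days, 1.45 with a pseudocount of 0.1 beside -1.54 with 1 and -2.73 with 5, and the Ddx4 difference on day 0, -0.0811 without the second and 0.105 without the first CTCF-K20R library, and -0.0087 without the second WT library. All 18 losses were of the interaction for Dazl, Mael, Sycp3 or Hormad1, and the cause was not tested. With the replicate block and the WT pairs averaged, the interaction of Hormad1 was 1.56 with a limma adjusted p of 0.0622. Same-numbered libraries deviated together little, with correlations of -0.031 to 0.03, so the numbers only name libraries. Leaving out each WT library was added after seeing the data. WT levels rest on 1 sample per day, and values under about 3 reads cannot show a difference.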

Other observations

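The neighbours of the germline genes were read to see how far the differences reached along the chromosome. The nearest tested gene on each side was mostly not called. Golph3l, 1.3 kb from Hormad1, had log2 fold changes of -0.05 on day 0 and 0.08 on day 4, and Fam221a, 5.1 kb from Stk31, had 0.45 and 0.93. Rftn1 and Plcl2 on either side of Dazl were called lower on day 4 (-3.68 and -1.41), against the direction of Dazl. Gabre, 33 kb from Magea4, was called higher on day 0 (1.1, limma adjusted p = 0.0271).

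Rhox5 lies in a cluster of X-linked homeobox genes, of which 3 others were tested. Rhox13, which passed the filter on low values only through the CTCF-K20R mESCs, had 7.92 and 6.61 normalized counts in WT mESCs, 44.0 and 45.4 in CTCF-K20R mESCs, 0 in both WT EB libraries and 5.78 and 4.30 in CTCF-K20R EBs. Against the limit of detection, CTCF-K20R EBs were at least 1.75-fold higher. Other cluster genes did not pass the filter on low values. Among them, Rhox9 was at least 5.48-fold and Rhox6 at least 4.08-fold higher in CTCF-K20R EBs against that limit. Rhox1 had 1.13 and 1.90 in WT and 23.5 and 19.9 in CTCF-K20R mESCs. Rhox4b went the other way, with 1.26 and 7.85 in WT EBs and 0 in CTCF-K20R EBs. Rhox4d and Rhox4g, near-identical copies whose values are uncertain for that reason, were not called on either day. Of 8 other Mage genes tested, Mageb16 was called higher on day 4 (3.44), with 19.7 and 21.4 normalized counts in WT and 248 and 217 in CTCF-K20R EBs. Maged1, Maged2 and Ndn, members of the family expressed broadly in somatic cells, were called lower on day 4 (-1.12, -1.42 and -1.41), and Ndn higher on day 0 (1.1). Beside these calls, 6.89% of all genes tested were called higher and 8.65% lower on day 4, and 1.19% higher on day 0.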
